A study of Mus musculus with 11 samples.

Results

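The replication-dependent histone genes were described here in mouse embryonic stem cells depleted of the chromatin architectural protein CTCF and in the same cells with CTCF put back. Every gene symbol that starts with Hist1h, Hist2h, Hist3h or Hist4h was taken, which gave 70 of the 55228 symbols in the deposited tables. They comprised 6 H1, 20 H2A, 19 H2B, 12 H3 and 13 H4 symbols. By the cluster in their symbol, 56 belonged to Hist1 on chromosome 13, 10 to Hist2 on chromosome 3, 3 to Hist3 on chromosome 11 and 1 to Hist4 on chromosome 6. Of the 70, 3 are annotated as pseudogenes (Hist1h2aj, Hist1h2al and Hist3h2bb-ps). Hist1h2al lies at chr13:51202727-51203065, far from the other Hist1 symbols.

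Cells make the bulk of their core and linker histones during S phase, when newly copied DNA is packed into nucleosomes, and they do so from intronless genes that lie together in clusters. The mRNAs of these genes normally carry no poly(A) tail and end instead just after a short stem-loop, which the stem-loop binding protein SLBP recognises and the U7 small nuclear ribonucleoprotein helps to cut. Some of the genes can also give longer, polyadenylated transcripts, and replication-independent variants such as H3f3a lie elsewhere in the genome.

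RNA sequencing had been done on 11 libraries of EN52.9.1, a mouse embryonic stem cell line in which endogenous CTCF carries an auxin-inducible degron (CTCF-AID), so that auxin removes the protein. All cells were grown with serum and leukemia inhibitory factor, and the auxin analog indole-3-acetic acid was used at 500 µM. The group EV_UT (3 libraries) was untreated and kept its endogenous CTCF. The group EV_aux (2 libraries) was treated with auxin and had its endogenous CTCF depleted. FL_aux (3 libraries) had auxin and reintroduced FL CTCF, and ZF4_aux (3 libraries) had auxin and reintroduced CTCF with the H373R change. All groups share the one degron line, the labels give neither the duration of auxin nor how CTCF was reintroduced, and no auxin-treated group with endogenous CTCF intact is among the samples, so auxin itself and loss of CTCF cannot be told apart between EV_aux and EV_UT. Nothing states that libraries of a group came from separate cultures, so the p-values measure the spread between these libraries. The series asks about CTCF as a protein that binds G-quadruplexes, and the comparisons below ask how the histone genes stood after depletion and after each reintroduction.

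Library totals ranged from 13465241 to 29902246 counts. Ctcf mRNA lay between 294 and 364 CPM (counts scaled to a common library size) in all libraries, which does not check the labels, because the degron acts on the protein and reads of the endogenous and reintroduced forms were not separated. The 11 pluripotency markers summed to 6051 to 6788 CPM in every library. The 10 primitive endoderm markers summed to 255 to 262 CPM in EV_UT, 221 to 234 in EV_aux, 550 to 585 in FL_aux and 353 to 408 in ZF4_aux. The 10 fibroblast markers, of which Postn, Lum, Dcn and S100a4 had too few counts to test, summed to 86.0 to 96.7 CPM in EV_UT, 87.0 to 93.1 in EV_aux, 118 to 137 in FL_aux and 114 to 121 in ZF4_aux. The part of either list in the histone values was not tested. In bulk RNA, fewer cells of a kind and less RNA per cell cannot be told apart, which for these genes includes the share of cells in S phase.

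The end of the annotated gene bears on what was counted, because the gene lengths behind the deposited values are those of the annotated exons. A 16-base stem-loop with the letters GGNNNTTNNNANNNCC, a stem of 6 base pairs and a loop of 4 bases, was found in an annotated transcript of 46 of the 70 symbols, searched on the RNA strand, against 0.223% of all 141767 annotated mouse transcripts searched the same way. The latter is a share of transcripts and not of genes. By gene, 187 held these letters, and 141 of those were outside the 70 symbols. The most frequent form was shared by 26 symbols of the H1, H2A, H2B and H3 classes, and 7 H4 symbols shared another form. The stem-loops of the abundant members are shown because they mark where the tailless mRNA ends; they are read from GENCODE M21 transcripts (GRCm38), 5′ to 3′, in DNA letters, with the stem-loop in capitals and 5 bases on either side.
Hist1h1c, chr13:23739507-23739532, plus strand: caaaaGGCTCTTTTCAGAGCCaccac
Hist3h2ba, chr11:58949344-58949369, plus strand: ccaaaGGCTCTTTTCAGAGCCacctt
Hist3h2a, chr11:58955167-58955192, plus strand: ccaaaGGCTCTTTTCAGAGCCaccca
Hist1h2ae, chr13:23570663-23570688, minus strand: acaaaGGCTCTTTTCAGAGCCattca
Hist1h3c, chr13:23745042-23745067, minus strand: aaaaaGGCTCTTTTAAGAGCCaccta
Hist1h4i, chr13:22040961-22040986, minus strand: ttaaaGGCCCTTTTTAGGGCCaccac
The H1, H2A and H2B genes in this set carried the same 16 bases, while Hist1h3c and Hist1h4i each carried a different form.

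The annotation of several members runs well past the stem-loop. In 23 symbols the annotated gene went more than 100 bases beyond it, and these held 54.9% of all histone counts. Hist3h2a was annotated for 1643 bases past the stem-loop, Hist1h1c for 840, Hist1h4i for 330 and Hist3h2ba for 169. Another 23 symbols ended within 100 bases of the stem-loop and held 13.2% of the counts. Another 6 had an annotated 3′ untranslated part without the stem-loop and held 22.5%, most of it from Hist1h2bc, whose only annotated form is spliced from 2 exons. The median TPM, a per-length scale, was 1.21 for the 23 with long extensions and 1.23 for the 23 that end near the stem-loop, but the former reached 25.2 and the latter 6.08. Whether the counted reads came from the tailless or the extended form of a gene was not tested.

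**Figure D1:**
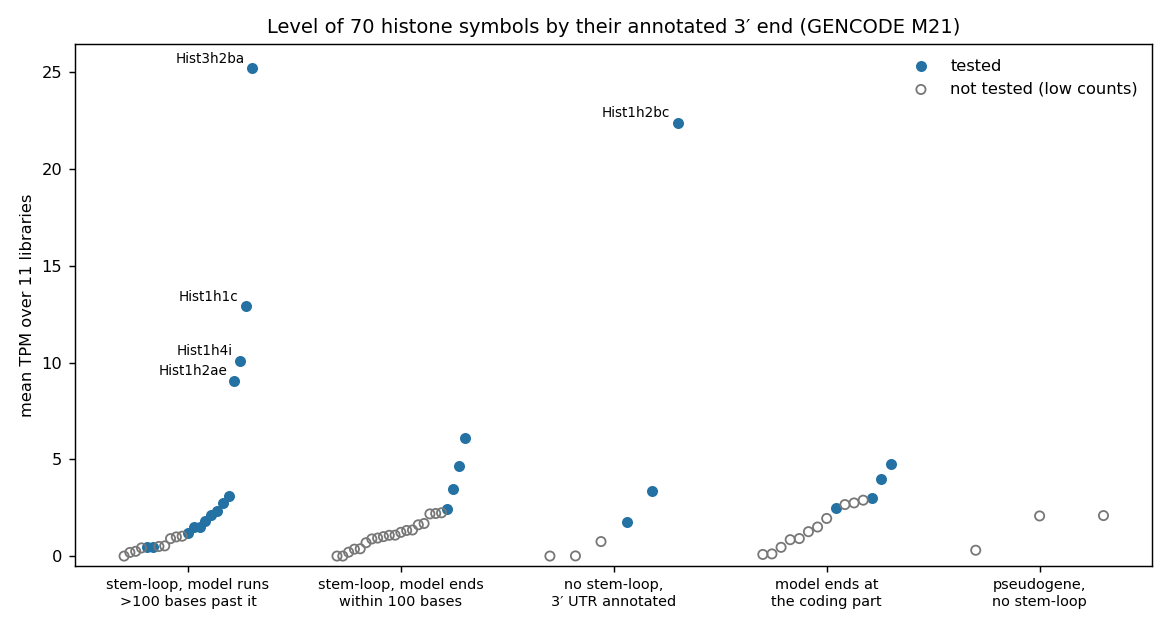
Mean TPM over 11 libraries (vertical axis) of each of the 70 histone symbols, grouped by how their annotated 3′ end relates to the stem-loop. Filled points were tested and open points had too few counts; Hist3h2ba (25.2) and Hist1h2bc (22.4) stand highest, and the symbols whose model ends within 100 bases of the stem-loop stay at or below 6.08.

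Histone reads were scarce. All 70 symbols together held 9884 counts over the 11 libraries, and 440 to 1672 per library. No read fell on 4 symbols (Hist2h2aa1, Hist2h3c1, Hist1h4m and Hist1h2br), 12 symbols never exceeded 3 counts in a library, and only 8 had at least 10 counts in every library. The edgeR filter on low counts kept 25 symbols for testing, all 6 of H1 but only 5 of 20 H2A, 7 of 19 H2B, 3 of 12 H3 and 4 of 13 H4, and these 25 held 83.8% of the histone counts. The highest count of any untested symbol in any library was 18. Just inside the filter were Hist1h2ah (80 counts in all), Hist1h4a (84) and Hist1h4b (91), and just outside it were Hist1h2ai (76), Hist1h3h (74) and Hist1h3d (72). Near-identical copies add to this. A median of 67.1% of the 50-base windows of an untested symbol also occurred in another gene, against 31.5% for tested symbols. Counts of single members of the H2A, H2B, H3 and H4 families are therefore uncertain where the counting could split or drop shared reads.

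The sum of all 70 symbols, with TMM scaling for depth, was lowest in EV_aux. It was 55.7, 44.2 and 43.7 CPM in the EV_UT libraries, 28.5 and 31.7 in EV_aux, 38.8, 33.4 and 36.5 in FL_aux, and 39.4, 38.7 and 44.3 in ZF4_aux. Both EV_aux libraries lay below every library of the other groups, FL_aux and ZF4_aux lay in between with ZF4_aux higher on average, and ZF4_aux reached into the range of EV_UT. The means were 47.9 ± 6.75 (SD, n = 3), 30.1 ± 2.30 (SD, n = 2), 36.2 ± 2.70 (SD, n = 3) and 40.8 ± 3.07 (SD, n = 3) CPM in that order, so EV_aux stood at 0.628 of EV_UT and FL_aux and ZF4_aux at 1.20 and 1.36 times EV_aux. No test is given for the sum, because a few genes dominate it. EV_UT replicate 1 stood apart from the other EV_UT libraries in how its values followed the GC content of genes (correlation 0.58 over 16242 genes, which are not independent), and without it the log2 ratio of EV_aux to EV_UT went from -0.64 to -0.50, as a share of all counts without TMM scaling.

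All 5 histone classes were lower in EV_aux than in EV_UT, and differences between the classes were not tested. H2B was the most abundant class, at 21.7, 18.6 and 17.6 CPM in EV_UT, 10.9 and 13.03 in EV_aux, 14.98, 13.4 and 12.95 in FL_aux, and 15.7, 16.04 and 17.3 in ZF4_aux. The EV_UT libraries lay above all others, and the FL_aux libraries overlapped those of EV_aux. Linker histone H1 summed to 12.7, 8.96 and 8.89 CPM in EV_UT, 6.44 and 7.06 in EV_aux, 9.35, 7.37 and 8.16 in FL_aux, and 9.81, 8.49 and 9.81 in ZF4_aux. H1 was thus higher in every reintroduction library than in either EV_aux library, and both reintroduction groups overlapped EV_UT. H2A summed to 8.79, 7.68 and 8.45 CPM in EV_UT, 4.90 and 5.19 in EV_aux, 5.96, 5.77 and 6.53 in FL_aux, and 6.71, 6.18 and 7.62 in ZF4_aux. H2A in all reintroduction libraries lay above EV_aux and below EV_UT. H4 summed to 6.89, 4.55 and 5.07 CPM in EV_UT, 3.31 and 3.11 in EV_aux, 4.29, 4.48 and 5.30 in FL_aux, and 3.83, 4.39 and 5.23 in ZF4_aux. H3 was the smallest class, at 5.49, 4.50 and 3.75 CPM in EV_UT, 2.91 and 3.32 in EV_aux, 4.20, 2.43 and 3.52 in FL_aux, and 3.36, 3.58 and 4.35 in ZF4_aux. H4 separated EV_aux from every other group, whereas H3 in FL_aux fell on both sides of EV_aux. The ratio of EV_aux to EV_UT was 0.662 for H1, 0.608 for H2A, 0.620 for H2B, 0.680 for H3 and 0.583 for H4. EV_UT replicate 1 was the highest library in every class, so these ratios lean on it. Some also lean on few genes: Hist1h1c of H1 held 13.7% of all histone counts, and Hist1h2bc and Hist3h2ba of H2B held 17.5% and 10.7%.

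**Figure D2:**
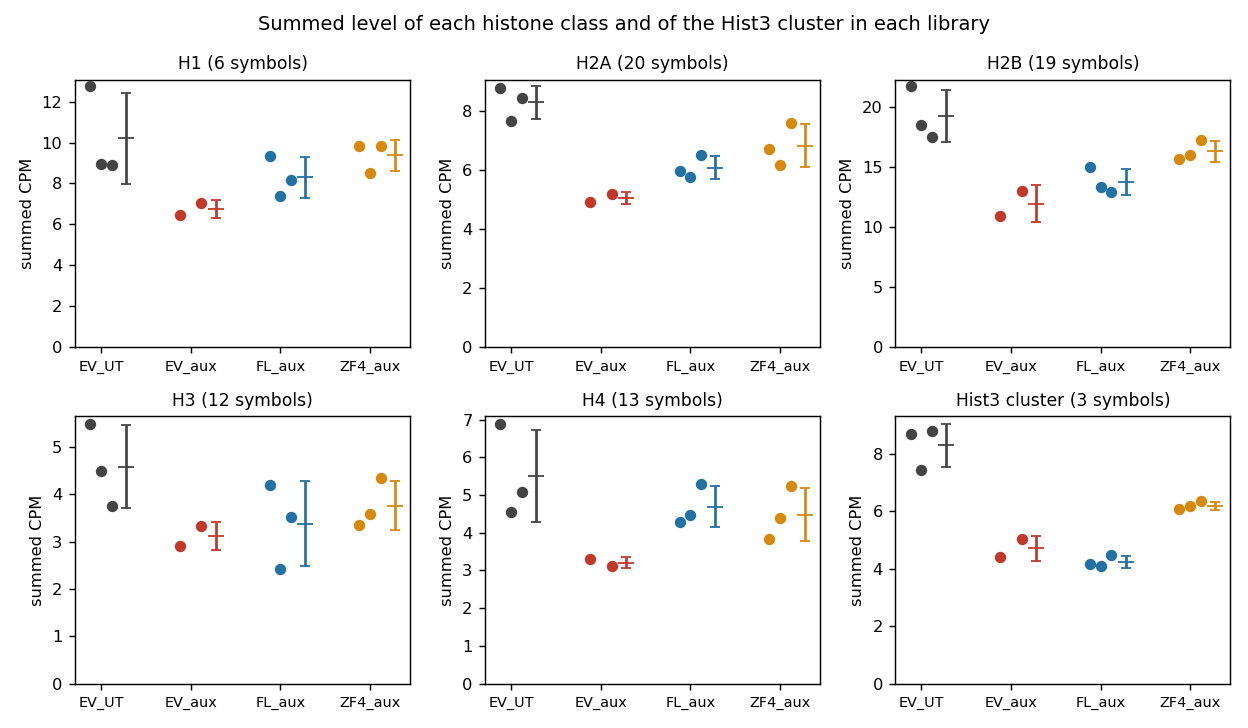
Summed CPM (vertical axis) of the H1, H2A, H2B, H3 and H4 symbols and of the 3 Hist3 symbols in each library (points), with the group mean and SD beside them, for the 4 groups on the horizontal axis. EV_aux lies below EV_UT in every panel, and in the Hist3 panel FL_aux (4.10 to 4.49) overlaps EV_aux while ZF4_aux (6.07 to 6.35) lies above it.

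The clusters are given as sums, and differences between them were not tested. Hist1 summed to a mean of 36.9 ± 6.33 CPM in EV_UT (SD, n = 3), 23.7 ± 2.13 in EV_aux (SD, n = 2), 29.9 ± 2.30 in FL_aux (SD, n = 3) and 32.3 ± 2.98 in ZF4_aux (SD, n = 3), and both of its large blocks on chromosome 13 showed this order of EV_UT above EV_aux, with ratios of 0.672 for the 24 symbols at chr13:21715763-22043676 and 0.633 for the 31 at chr13:23531050-23934851 (GRCm38). Hist2 stood at 2.45, 1.59, 1.94 and 2.16 CPM in the same order of groups. Hist3 summed to 8.69, 7.44 and 8.78 CPM in EV_UT, 4.39 and 5.02 in EV_aux, 4.15, 4.10 and 4.49 in FL_aux, and 6.07, 6.18 and 6.35 in ZF4_aux. In Hist3, FL_aux overlapped EV_aux and its mean was lower (ratio 0.902), and every ZF4_aux library lay above every FL_aux library, a sum that rests on 2 tested genes. The only Hist4 symbol, Hist4h4, had 10, 3 and 5 counts in EV_UT, 2 and 2 in EV_aux, 5, 0 and 2 in FL_aux, and 5, 1 and 3 in ZF4_aux, most of which are at or near the floor of 3 counts, so no fold is given.

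After CTCF depletion 5 of the 25 tested members fell and the rest did not pass the test. In the quasi-likelihood test of edgeR, with p-values adjusted by Benjamini and Hochberg's method over 16420 genes and a threshold of 0.05, the 5 were Hist3h2a, Hist1h2bc, Hist1h1c, Hist1h4i and Hist3h2ba. The background was 20.7% of all tested genes called in either direction and 9.40% called lower, so the share of members called (20%) was near the background, while the direction was the same for all 5. The median log2 fold change was -0.61 over the 25 members and 0.01 over all tested genes, and 23 of the 25 values were below 0. In 15 of the 25, both EV_aux libraries lay below all EV_UT libraries, against a background of 20.4%. The 2 members above 0, named after their values were seen, were Hist1h3e and Hist1h1t, the testis-type linker histone, and neither passed the test (adjusted p = 0.636 and 0.713 by edgeR). Without EV_UT replicate 1 the direction was less uniform: of 24 members tested, 18 were below 0 and 6 above, with a median of -0.44.

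**Figure D3:**
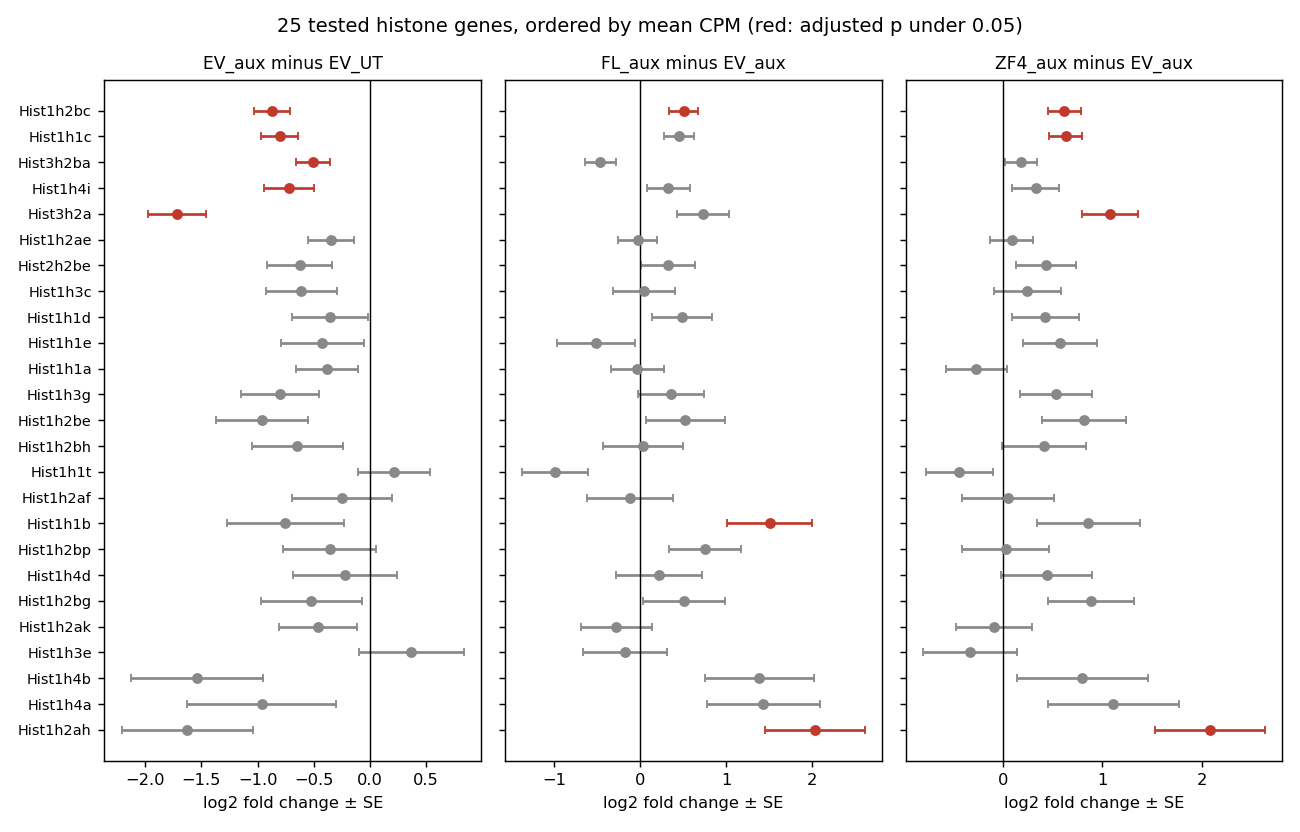
log2 fold change with its standard error (horizontal axis) of the 25 tested histone genes, ordered by mean CPM with the most abundant at the top, in 3 comparisons that share the EV_aux libraries. Red points passed an adjusted p of 0.05 in edgeR; after depletion 23 of 25 points lie left of 0, and error bars widen for the scarce genes at the bottom.

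Hist1h2bc, which encodes a core histone H2B, was the most abundant member by count and held 17.5% of all histone counts. It lies at chr13:23684199-23692908 (GRCm38, plus strand). Its level was 10.02, 8.17 and 7.46 CPM in EV_UT, 3.99 and 5.23 in EV_aux, 6.82, 7.29 and 5.92 in FL_aux, and 6.63, 6.74 and 8.08 in ZF4_aux. Both EV_aux libraries lay below all the others, FL_aux lay below EV_UT, and ZF4_aux overlapped EV_UT. It fell by 0.88 ± 0.16 on the log2 scale after depletion (1.84-fold lower, edgeR adjusted p = 0.00106). Against EV_aux it rose by 0.50 ± 0.17 in FL_aux (adjusted p = 0.0449) and by 0.62 ± 0.16 in ZF4_aux (adjusted p = 0.0146), both by edgeR, and in FL_aux it stayed below EV_UT (log2 fold change -0.37, edgeR adjusted p = 0.0426). The FL_aux rise did not pass without EV_aux replicate 1 (0.34), EV_aux replicate 2 (0.74), FL_aux replicate 1 (0.48), FL_aux replicate 2 (0.45) or ZF4_aux replicate 2 (0.52), nor in limma on log2(TPM + 1) (0.45), and the ZF4_aux rise not without EV_aux replicate 1 (0.46) or ZF4_aux replicate 3 (0.52). The FL_aux difference from EV_UT was not called under 13 of 23 alternatives, among them DESeq2 (-0.37) and each of 6 left-out libraries: EV_UT replicate 1 (-0.23), EV_UT replicate 2 (-0.40), FL_aux replicate 1 (-0.40), FL_aux replicate 3 (-0.29), ZF4_aux replicate 1 (-0.38) and ZF4_aux replicate 2 (-0.37). The drop after depletion passed under all 23.

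**Figure D4:**
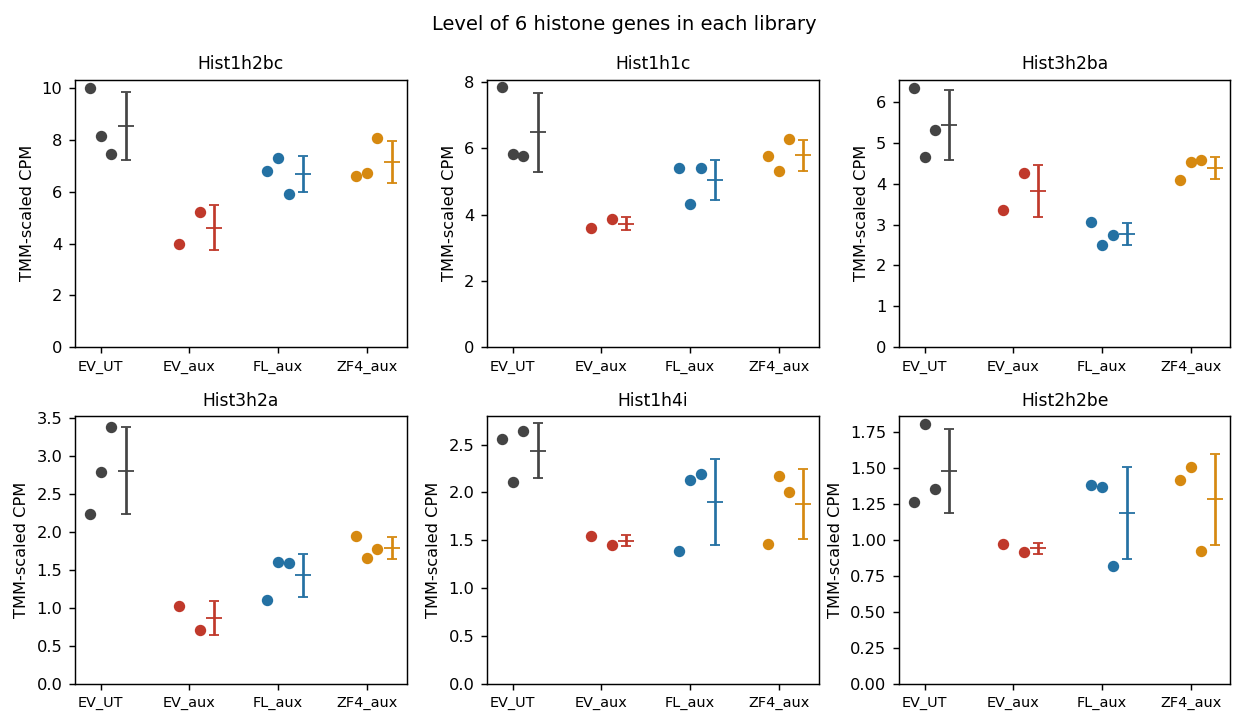
TMM-scaled CPM (vertical axis, starting at 0) of 6 histone genes in each library (points) by group, with the group mean and SD beside them. In Hist3h2a the EV_UT libraries (2.23 to 3.38) lie above the EV_aux libraries (0.706 to 1.03), and in Hist3h2ba all FL_aux libraries (2.51 to 3.05) lie below all ZF4_aux libraries (4.09 to 4.58). They do so in Hist3h2a as well, where the difference was not called (edgeR adjusted p = 0.42).

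Hist1h1c, which encodes the somatic linker histone H1.2, lies at chr13:23738808-23740367 (GRCm38, plus strand). Its level was 7.86, 5.82 and 5.77 CPM in EV_UT, 3.59 and 3.86 in EV_aux, 5.39, 4.33 and 5.41 in FL_aux, and 5.76, 5.33 and 6.27 in ZF4_aux. The EV_aux libraries were again the lowest, with no overlap with any group. It fell by 0.81 ± 0.16 on the log2 scale after depletion (1.75-fold lower, edgeR adjusted p = 0.0022) under all 23 alternatives as well. In ZF4_aux it rose by 0.63 ± 0.17 against EV_aux (edgeR adjusted p = 0.0128), a call that was lost without EV_aux replicate 1 (0.59), EV_aux replicate 2 (0.69) or ZF4_aux replicate 3 (0.57). In FL_aux the value was 0.45 ± 0.17 (edgeR adjusted p = 0.0724). It passed in 5 of 23 alternatives, among them removal of the GC trend (0.47), fitting only the compared libraries (0.46) and leaving out EV_UT replicate 1 (0.47).

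The other H1 genes gave smaller or less certain values. Hist1h1a, Hist1h1d and Hist1h1e, other somatic linker histones named here to complete the class, had log2 fold changes of -0.38, -0.36 and -0.42 after depletion and none passed the test (edgeR adjusted p = 0.422, 0.503 and 0.467). Hist1h1b, which encodes H1.5 and was chosen after its values were seen, had 17, 4 and 14 counts in EV_UT, 3 and 8 in EV_aux, 22, 7 and 12 in FL_aux, and 14, 9 and 11 in ZF4_aux. Its counts in FL_aux and EV_UT overlapped widely, and EV_aux held the lowest of them. It rose in FL_aux against EV_aux by 1.51 ± 0.49 on the log2 scale (edgeR adjusted p = 0.0371), and this call was lost without EV_aux replicate 1 (1.18), EV_aux replicate 2 (2.12) or FL_aux replicate 1 (1.12).

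Hist3h2a, an H2A gene of the Hist3 cluster, showed the largest drop of the members called after depletion. It lies at chr11:58954685-58956830 (GRCm38, plus strand), 173 bases from the start of the divergent pseudogene Hist3h2bb-ps, and shares 708 exonic bases with Trim17 on the same strand, so part of its count is uncertain. Its level was 2.23, 2.79 and 3.38 CPM in EV_UT, 1.03 and 0.706 in EV_aux, 1.10, 1.59 and 1.58 in FL_aux, and 1.94, 1.65 and 1.77 in ZF4_aux. The groups did not overlap: EV_UT was highest, ZF4_aux next, then FL_aux, then EV_aux. The step from FL_aux to ZF4_aux was not called (0.35 ± 0.23, edgeR adjusted p = 0.42), nor under any of the 23 alternatives. Over all tested genes, 15.4% had every ZF4_aux library above every FL_aux library. Hist3h2a fell by 1.72 ± 0.26 on the log2 scale after depletion (3.29-fold lower, edgeR adjusted p = 0.000193). Against EV_aux it rose by 1.08 ± 0.28 in ZF4_aux (edgeR adjusted p = 0.0125), a call lost without EV_aux replicate 2 (0.80). In FL_aux it had a value of 0.73 ± 0.31 (edgeR adjusted p = 0.0964), which passed in 2 of 23 alternatives, without EV_UT replicate 1 (0.74) and with the GC trend removed (0.78). It remained below EV_UT in both reintroductions, by -0.99 in FL_aux (edgeR adjusted p = 0.00167) and by -0.64 in ZF4_aux (edgeR adjusted p = 0.0108), the latter lost without EV_UT replicate 3 (-0.47).

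Hist3h2ba, an H2B gene of the same cluster, was lower in EV_aux and in FL_aux than in EV_UT. It lies at chr11:58948920-58949533 (GRCm38, plus strand) and had the highest per-length level of all members, 25.2 TPM on average. Its level was 6.36, 4.65 and 5.33 CPM in EV_UT, 3.36 and 4.28 in EV_aux, 3.05, 2.51 and 2.75 in FL_aux, and 4.09, 4.53 and 4.58 in ZF4_aux. All FL_aux libraries lay below both EV_aux libraries, while ZF4_aux overlapped EV_aux and lay below EV_UT. After depletion it fell by 0.51 ± 0.15 on the log2 scale (1.42-fold lower, edgeR adjusted p = 0.0276), a call lost without EV_aux replicate 1 (-0.36), in DESeq2 (-0.52, adjusted p = 0.0567) and when only the compared libraries were fitted (-0.52). FL_aux against EV_aux gave -0.47 ± 0.18 (edgeR adjusted p = 0.0698), which passed in 6 of 23 alternatives, among them limma on log2(TPM + 1) (-0.50), removal of the GC trend (-0.48) and leaving out EV_UT replicate 1 (-0.45), and ZF4_aux against EV_aux gave 0.18 ± 0.16 (edgeR adjusted p = 0.446). In FL_aux it was 1.96-fold lower than in EV_UT (log2 fold change -0.97 ± 0.15, edgeR adjusted p = 0.000137), a call that held under all 23 alternatives.

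The upstream sequences of these Hist3 genes are shown because the genes lie in one cluster and were both lower in FL_aux than in EV_UT. The 150 bases before each annotated start are from RefSeq (GRCm38.p6), 5′ to 3′ on the gene's strand, with the TATA box letters TATAAA, the CCAAT box and the octamer letters ATTTGCAT in capitals on either strand.
Hist3h2a, chr11:58954535-58954684, plus strand: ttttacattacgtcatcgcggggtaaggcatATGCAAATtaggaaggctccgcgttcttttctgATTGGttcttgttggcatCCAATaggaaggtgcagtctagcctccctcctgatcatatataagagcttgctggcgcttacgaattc
Hist3h2ba, chr11:58948761-58948910, plus strand: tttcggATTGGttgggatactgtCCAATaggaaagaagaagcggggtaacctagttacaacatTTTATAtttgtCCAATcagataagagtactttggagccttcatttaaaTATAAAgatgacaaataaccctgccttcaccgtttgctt
Both held CCAAT, Hist3h2a also the octamer letters ATTTGCAT, and Hist3h2ba also TATAAA. Promoters of 59 symbols whose RefSeq start lay within 500 bases of the GENCODE start were searched on both strands, from 250 bases before to 50 after the start. CCAAT occurred in all H1, H2A, H2B and H3 promoters but in only 3 of the 12 H4 promoters, which made 84.7% of the 59 against 37.4% of all 32851 mouse promoters. TATAAA occurred in 57.6% against 13.6%, and ATTTGCAT in 22.0% against 1.74%, all of it in 7 H2A and 6 H2B promoters. The 59 windows are not all separate stretches of DNA, because 15 pairs of members start close together on opposite strands. Hist1h2ae and Hist1h2bg, for example, start 176 bases apart, so the same letters can be counted for both genes of a pair. The G-quadruplex pattern, 4 runs of at least 3 G with 1 to 7 bases between them, occurred in 8.47% against 18.6%. A strict core of the CTCF binding motif occurred in 0 of the 59 against 0.0122% of all promoters, which says only that its exact letters are not in these windows. These are matches of letters and not binding sites.

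Hist1h4i was the only H4 gene called. It lies at chr13:22040636-22041362 (GRCm38, minus strand), and its level was 2.56, 2.10 and 2.64 CPM in EV_UT, 1.54 and 1.45 in EV_aux, 1.38, 2.13 and 2.19 in FL_aux, and 1.46, 2.17 and 2.00 in ZF4_aux. EV_aux lay below EV_UT, and 1 library each of FL_aux and ZF4_aux was as low as EV_aux. It fell by 0.72 ± 0.23 on the log2 scale after depletion (1.65-fold lower, edgeR adjusted p = 0.033), a call lost without EV_UT replicate 3 (-0.67), EV_aux replicate 1 (-0.76) or EV_aux replicate 2 (-0.69), in DESeq2 (-0.73, adjusted p = 0.0746) and in limma on log2(TPM + 1) (-0.61). The values against EV_aux were 0.32 ± 0.25 in FL_aux and 0.33 ± 0.24 in ZF4_aux, and neither passed (edgeR adjusted p = 0.377 and 0.355). The scarce H4 genes Hist1h4a and Hist1h4b, with 84 and 91 counts in all, had values of -0.96 and -1.54 after depletion without passing (edgeR adjusted p = 0.344 and 0.0776).

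The most abundant H2A, H3 and Hist2 genes by TPM did not pass in any of these comparisons. Hist1h2ae stood at 2.06, 2.15 and 1.84 CPM in EV_UT, 1.37 and 1.74 in EV_aux, 1.67, 1.52 and 1.43 in FL_aux, and 1.55, 1.37 and 2.08 in ZF4_aux, a log2 fold change of -0.35 ± 0.21 after depletion (edgeR adjusted p = 0.27). Hist1h3c stood at 1.66, 1.27 and 0.992 CPM in EV_UT, 0.741 and 0.955 in EV_aux, 1.24, 0.608 and 0.714 in FL_aux, and 0.860, 1.27 and 0.962 in ZF4_aux, with -0.61 ± 0.32 after depletion (edgeR adjusted p = 0.195). Hist2h2be stood at 1.26, 1.81 and 1.36 CPM in EV_UT, 0.969 and 0.913 in EV_aux, 1.38, 1.37 and 0.816 in FL_aux, and 1.42, 1.51 and 0.923 in ZF4_aux, with -0.62 ± 0.29 after depletion (edgeR adjusted p = 0.147). In all 3 genes both EV_aux libraries lay below every EV_UT library, and for Hist1h3c and Hist2h2be the reintroduction libraries lay on both sides of the EV_aux values.

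Reintroduction of FL CTCF gave 3 called members against EV_aux in edgeR, all higher, namely Hist1h2bc, Hist1h1b and Hist1h2ah. limma called 1 higher and 2 lower on log2(TPM + 1), and 2 higher and 2 lower on log2(TPM + 0.1). The background was 24.5% of tested genes in either direction and 11.1% higher. The median log2 fold change of the 25 members was 0.32, against -0.01 over all tested genes. In 8 of the 25 every FL_aux library lay above both EV_aux libraries, against a background of 24.8%, and in 2, Hist3h2ba and Hist1h1t, every FL_aux library lay below them (background 29.1%). Hist1h2ah, an H2A gene, had only 11, 6 and 7 counts in EV_UT, 1 and 3 in EV_aux, 6, 6 and 10 in FL_aux, and 7, 10 and 13 in ZF4_aux. Both of its EV_aux counts are at or under 3, so its fitted rises of 2.03 in FL_aux and 2.09 in ZF4_aux (edgeR adjusted p = 0.0187 and 0.0141) depend on a handful of reads, and 92.1% of its 50-base windows also occur in another gene. Only libraries of FL_aux and ZF4_aux carried it past the low-count filter, so its calls in these 2 groups give no support of their own. Both calls were lost without EV_aux replicate 1 (1.68 and 1.73) or EV_aux replicate 2 (2.74 and 2.78), and the FL_aux call also without FL_aux replicate 3 (1.82). The count of called members in FL_aux went from 3 to 7 without EV_UT replicate 1, to 1 without FL_aux replicate 1 and to 0 in edgeR without either EV_aux library.

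Reintroduction of H373R CTCF gave 4 called members against the same EV_aux libraries, all higher, namely Hist3h2a, Hist1h2ah, Hist1h2bc and Hist1h1c. The background was 21.7% in either direction and 10.03% higher, and the median log2 fold change was 0.43 over the members and 0.000315 over all tested genes. In 10 of the 25 every ZF4_aux library lay above both EV_aux libraries, against a background of 28.4%, and in 1, Hist1h1t, every library lay below them (background 28.6%). The count went to 1 without EV_aux replicate 1, EV_aux replicate 2 or ZF4_aux replicate 3. Hist1h2bc and Hist1h2ah passed in both reintroductions, which share the EV_aux libraries, and Hist1h2ah entered the test only through the reintroduction libraries.

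ZF4_aux and FL_aux differed in 1 of the 25 tested members. Hist3h2ba was 1.57-fold higher in ZF4_aux (log2 fold change 0.65 ± 0.16, edgeR adjusted p = 0.021), against a background of 5.96% called in either direction, 3.14% higher and 2.82% lower. The call was lost without FL_aux replicate 2 (0.60), FL_aux replicate 3 (0.64), ZF4_aux replicate 2 (0.63) or ZF4_aux replicate 3 (0.61). Hist1h1e, singled out for its size, had a larger value, 1.09 ± 0.37, and did not pass (edgeR adjusted p = 0.0974), and it shares 496 exonic bases on the same strand with Hist1h2be.

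Against EV_UT, the only comparison partner with endogenous CTCF, 3 members were lower in FL_aux (Hist3h2ba, Hist3h2a and Hist1h2bc), with a background of 36.9% (19.2% lower), and 1 was lower in ZF4_aux (Hist3h2a), with a background of 44.4% (22.1% lower). The median log2 fold change of the members was -0.37 in FL_aux and -0.22 in ZF4_aux. The FL_aux count went to 6 without EV_UT replicate 3, and the ZF4_aux count to 2 without EV_UT replicate 2 or EV_aux replicate 2 and to 3 without ZF4_aux replicate 3.

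Genes that make, process or accompany histone mRNA were counted from lists, and H1fx, H2afz, Cpsf3, Hat1 and Daxx are named because they complete a count. The counts after depletion stand beside 9.40% of all tested genes called lower and 11.3% called higher. Of 11 genes on a list of histone variants, H2afx and H1fx fell after depletion (log2 fold change -0.41 and -0.87, edgeR adjusted p = 0.00957 and 0.0054). H2afx, which marks sites of DNA damage when phosphorylated, rose against EV_aux in FL_aux (0.58) and ZF4_aux (0.59, edgeR adjusted p = 0.000915 and 0.00107). Among 10 genes for histone gene transcription only Ccne1, the cyclin that activates the co-activator NPAT, was called after depletion, and it rose (0.34, edgeR adjusted p = 9.45e-05), while Npat itself had a value of -0.03 (edgeR adjusted p = 0.826). Among 15 genes for 3′ end formation and decay, Lsm11, a U7 protein, rose by 0.77 (edgeR adjusted p = 4.15e-06), Cpsf3 fell, and Slbp had a value of -0.03 (edgeR adjusted p = 0.785). Lsm11 fell against EV_aux in FL_aux (-0.66) and in ZF4_aux (-0.32). Among 15 histone chaperones, Asf1b rose after depletion (0.33, edgeR adjusted p = 0.00019) and Hat1, Asf1a, Hira and Daxx fell.

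S-phase genes were counted in the same comparisons. Of 25 S-phase and replication genes 17 did not pass after depletion and the list's median log2 fold change was -0.07. Against backgrounds of 9.40% lower and 11.3% higher over all tested genes, 6 fell, including Rrm2, a subunit of ribonucleotide reductase (-0.35, edgeR adjusted p = 0.000355), while Clspn, a checkpoint adaptor, and Tk1, thymidine kinase, rose (0.16 and 0.34, edgeR adjusted p = 0.0428 and 0.00587). Their summed level was 6900 to 6958 CPM in EV_UT, 6443 to 6498 in EV_aux, 7037 to 7247 in FL_aux and 6867 to 7003 in ZF4_aux. In FL_aux 9 rose and 1 fell against EV_aux (backgrounds 11.1% and 13.4%), and in ZF4_aux 7 rose and 1 fell (backgrounds 10.03% and 11.7%). The 15 G2 and M phase genes summed to 5042 to 5529 CPM in EV_UT and 5285 to 5479 in EV_aux. The part of S phase in the histone values was not tested.

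A list of 23 RNAs taken as lacking a poly(A) tail was examined, because most histone mRNAs lack one. The labels do not state poly(A) selection or ribosomal RNA depletion. Only 5 of the 23 passed the filter. The 23 together summed to 81.8 to 125 CPM in EV_UT, 61.9 to 65.2 in EV_aux, 51.1 to 59.9 in FL_aux and 49.4 to 56.1 in ZF4_aux, most of it from the long noncoding RNA Malat1. Malat1 fell after depletion (-0.77, edgeR adjusted p = 0.00163) and was not called against EV_aux in FL_aux or ZF4_aux (edgeR adjusted p = 0.316 and 0.293). Rmrp and Rn7sk, RNA polymerase III transcripts, rose in FL_aux against EV_aux (2.24 and 1.89, edgeR adjusted p = 0.0135 and 0.00764) and did not pass in ZF4_aux (0.78 and 1.00, edgeR adjusted p = 0.47 and 0.168). Neat1, a long noncoding RNA, fell in both (-0.59 and -0.51, edgeR adjusted p = 0.0118 and 0.0235). The part of tailless RNA recovery in the histone values was not tested, and neither Malat1 nor Neat1 was checked as a measure of such recovery.

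The GC content of the histone genes ran from 39.8% to 70.5%. The 15 symbols at or below 50% GC stood in EV_aux at 0.538 of EV_UT, and the 55 above 50% at 0.677. Relative to EV_aux they stood at 1.41 and 1.11 in FL_aux and at 1.54 and 1.28 in ZF4_aux in the same order. These are sums, and the 15 include the abundant Hist1h2bc and Hist3h2a, both called lower after depletion, so the first ratio leans on few genes. Over all tested genes with a GC value, the median log2 fold change after depletion was 0.06 for genes at 50% GC and over and -0.04 for those under it.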

How the data were processed

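RNA-seq counts of 11 libraries and a table of TPM values were used. Per the submitters' processing notes, the authors counted reads per gene with featureCounts of Subread 2.0.3, named DESeq2, and gave mm10 and GRCm38 as builds; the aligner, annotation and strand setting are not given in the sources used here. The deposited TPM values imply gene lengths that equal the GENCODE M21 exon unions, as a ratio of 1 to 4 decimals, for all 66 members with counts. The members and gene lists were chosen with earlier results of these data known. An EV_aux replicate 3 was not analysed here.

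Counts of all 55228 symbols were fitted in R 4.3.3 with edgeR 4.0.16 (TMM scaling, filterByExpr by group, group means, quasi-likelihood test), leaving 16420 genes, with Benjamini-Hochberg adjustment over all of them and a threshold of 0.05. CPM values are the deposited counts scaled by library size with TMM factors. The script was tested on simulated data. Alternatives used DESeq2 1.42.0, limma 3.58.1 on log2(TPM + 1) or log2(TPM + 0.1), other scalings and filters, removal of a GC trend, a replicate block, a threshold of 0.01, and leaving out each library. Members were named if called and among the 8 largest changes of a comparison, counting those whose average log2 CPM reached 1, if highest by TPM in their class or cluster, if called in 4 or more of the 6 comparisons, or if next to the count filter; up to 4 genes of each list, Slbp, Npat and Ctcf were named too. Exceptions are stated. Keeping only promoters whose RefSeq start lay within 500 bases of the GENCODE start was chosen after the data were seen; with all 62, the CCAAT box, the TATA box, the octamer, the G-quadruplex pattern and the CTCF core occurred in 53, 35, 14, 5 and 0. The members followed through the alternatives were also chosen with their values known. Counts limit precision: 3 counts correspond to 0.100 to 0.223 CPM per library.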

Additional observations from a re-analysis of the deposited data

Results flagged for a closer look

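Changes against EV_aux that differed between ZF4_aux and FL_aux were singled out by testing ZF4_aux against FL_aux directly in edgeR. Among the histone genes only Hist3h2ba met this, with a difference of 0.65 on the log2 scale. Among the accompanying genes named by rule it was met by Lsm11 (0.34), Tk1 (0.25) and Pdgfrb (0.32), which were higher in ZF4_aux, and by Zfp42 (-0.18), Fgf4 (-0.20), Acta2 (-0.83) and Col3a1 (-1.46), which were lower. The primitive endoderm genes Gata6 (-0.74), Gata4 (-0.46), Dab2 (-0.77) and Cubn (-0.86) were lower in ZF4_aux than in FL_aux as well, among 7 of 10 markers of that list called lower (background 2.82%).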

How the results depend on the processing

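Of 23 alternatives, the drops of Hist3h2a, Hist1h2bc and Hist1h1c after depletion and of Hist3h2a and Hist3h2ba in FL_aux against EV_UT kept their call in each. The share of all genes called is given for the main fit only. A shift in the number of members called under any alternative therefore cannot be read as particular to histone genes. For EV_aux against EV_UT, 5 members were called by edgeR, 3 by DESeq2 and 3 at a threshold of 0.01. For FL_aux against EV_aux, 3 were called, 1 by DESeq2, 1 with at least 10 counts in every library (which left 8 members), 6 with the GC trend removed and, by edgeR at 0.01, 0 (9 at an unadjusted p under 0.05). For ZF4_aux against EV_aux, 4 were called, 1 by limma without a TPM filter and, by edgeR at 0.01, 0 (4 unadjusted). For ZF4_aux against FL_aux, 1 was called, 2 without a count filter, 2 when only the compared libraries were fitted and, by edgeR at 0.01, 0 (2 unadjusted). For FL_aux against EV_UT, 3 were called, 6 without a count filter and 5 with the GC trend removed or by limma with either pseudocount. For ZF4_aux against EV_UT, 1 was called, 3 with RLE scaling, 2 with at least 10 counts, 6 with the GC trend removed, 2 and 3 by limma on log2(TPM + 1) and log2(TPM + 0.1) and, by edgeR at 0.01, 0 (4 unadjusted).

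Leaving out each library gave, in the same order of comparisons, 3 to 6, 0 to 7, 1 to 4, 0 to 2, 2 to 6 and 1 to 3 members called, and a log2 ratio of the histone share of all counts, without TMM scaling, of -0.73 to -0.50, 0.15 to 0.33, 0.36 to 0.53, 0.13 to 0.26, -0.47 to -0.26 and -0.27 to -0.0595, against -0.64, 0.24, 0.44, 0.20, -0.40 and -0.20 with every library. EV_aux against EV_UT gave 3 without EV_aux replicate 1, and ZF4_aux against FL_aux gave 2 without EV_UT replicate 1. Where EV_aux was left with 1 library, that library was assumed to vary like the other groups. The cause of these shifts was not tested.

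Replicate numbers were shared between groups, but the correlations of same-numbered libraries ran from -0.09 to 0.28, so they share only a number. A replicate block gave 5 members in FL_aux against EV_UT. A replicate block with the GC trend removed gave 8 in EV_aux against EV_UT, 5 in FL_aux against EV_aux, 2 in ZF4_aux against FL_aux, and 5 and 6 in FL_aux and ZF4_aux against EV_UT. The 45 members at 18 counts or fewer in every library were left out by the count filter, and how large a change could have been detected in them was not determined.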
